A study of Mus musculus with 123 samples.

Results

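The genes examined here were 8 transcription factors of the mouse trophectoderm, Cdx2, Eomes, Gata2, Gata3, Tfap2a, Tfap2c, Hand1 and Elf3. They were taken by gene name from a table of unique molecular identifier (UMI) counts that holds 29022 genes, and all 8 passed the detection filter that left 14053 genes for testing. The table came from 3′ RNA sequencing of 96 Ctrl and KO and 27 MWT mouse embryos, each sequenced alone, in 16 groups that cross a line, a genotype and a stage. In the Oct4 line the gene removed was Pou5f1, which encodes OCT4, and in the Sox2 line it was Sox2. The label strain of all embryos was B6C3F1, and the mothers had been superovulated.

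Ctrl and KO embryos both came from mothers whose floxed allele had been deleted in the growing oocyte by Cre under the Zp3 promoter, so embryos of both kinds lacked the maternal gene product. Ctrl embryos had an intact paternal allele, whereas KO embryos also carried a paternal null allele and were maternal-zygotic knockouts. The null alleles carried a fluorescent reporter, mKO2 in the Oct4 line and EGFP in the Sox2 line, which was used to pick out the KO embryos. MWT embryos had a mother with the gene intact. Morulae were taken whole at stage E2.75. For the inner cell mass (ICM) of the Ctrl, KO and Sox2 MWT groups, embryos were cultured in KSOM medium with 1 µM PD0325901, an inhibitor of the kinase MEK that holds back primitive endoderm, until E3.75 (early ICM) or E4.5 (late ICM), and the trophectoderm was then lysed by immunosurgery. Every Ctrl and KO group held 8 embryos. The MWT groups held 7 Oct4 morulae, 5 Oct4 early ICMs, 8 Oct4 late ICMs and 7 Sox2 early ICMs. The labels of the 13 Oct4 MWT ICMs disagreed on the stage, and the stage in their titles was used. The 5 titled early ICM are elsewhere labelled morulae with no inhibitor named, and the 8 titled late ICM are elsewhere labelled early ICMs, with the inhibitor. Stage, culture with the inhibitor and removal of the outer cells all changed between morula and ICM and cannot be told apart.

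The trophectoderm is the outer epithelium of the blastocyst and forms the fetal part of the placenta. In outer cells, unphosphorylated YAP binds TEAD4 and switches on Cdx2 and Gata3, whereas in inner cells Hippo signalling keeps YAP out of the nucleus and OCT4 and SOX2 come to mark the cells that form the epiblast. CDX2 and OCT4 are known to repress each other, and trophectoderm genes are known to be switched on in inner cells that lack OCT4. In single-embryo libraries, a lower level can come from fewer cells of a type or from less RNA per cell, which cannot be told apart here.

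Windows of 250 bases before a RefSeq transcription start were read from RefSeq (build GRCm38.p6, the same assembly as mm10) for 6 of the 8 genes, with 8 windows in all. The set of windows used here held none for Tfap2c and Hand1. The windows of Cdx2 and Elf3 are shown because each holds the letters ATGCAAAT, the octamer bound by OCT4 and other POU factors. The Gata3 window, which lies 11184 bases inside the gene span given below for Gata3 and within the span of the antisense gene Gm13256, is shown because Gata3 gave the smallest adjusted p among these genes in late Oct4-KO ICMs and its window holds no octamer. Each is written 5′ to 3′ on the gene's minus strand, with bases inside annotated exons left out and motif matches in capitals.
Cdx2 (chr5:147307271-147307499): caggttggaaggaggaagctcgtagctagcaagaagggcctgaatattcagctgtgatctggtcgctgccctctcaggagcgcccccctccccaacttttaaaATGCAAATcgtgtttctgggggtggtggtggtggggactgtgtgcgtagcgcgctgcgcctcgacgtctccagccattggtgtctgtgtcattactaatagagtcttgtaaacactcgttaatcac
Elf3 (chr1:135258569-135258722): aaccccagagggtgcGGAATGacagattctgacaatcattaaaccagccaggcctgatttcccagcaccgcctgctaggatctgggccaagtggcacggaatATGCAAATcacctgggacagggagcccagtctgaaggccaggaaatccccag
Gata3 (chr2:9878601-9878850): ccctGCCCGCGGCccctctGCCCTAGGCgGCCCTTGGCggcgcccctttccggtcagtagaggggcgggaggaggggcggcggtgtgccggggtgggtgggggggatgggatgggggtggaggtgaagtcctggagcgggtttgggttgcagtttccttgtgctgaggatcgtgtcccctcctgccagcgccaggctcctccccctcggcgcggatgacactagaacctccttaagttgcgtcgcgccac

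The octamer, searched as ATGCNAAT on both strands, starts at base -147 from the RefSeq start in Cdx2 and at -148 in Elf3. From the starts of the gene spans given below, which come from another annotation, these are -126 and -52. Other positions are from the RefSeq start. Among all 32851 RefSeq windows of this length, 2.86% hold it. Another match, ATGCTAAT, starts at -246 in the second of the Tfap2a windows. The other capitals in the Elf3 window mark GGAATG, the letters recognised by TEAD factors, at -235, a motif present in 12.6% of windows. The capitals in the Gata3 window mark 3 matches to GCCNNNGGC, the AP-2 motif, at -246, -231 and -221, and 13.7% of windows hold at least 1. The Cdx2 window also holds an AP-2 match at -16, beyond the stretch shown, and the second Gata2 window holds one at -222 and a TEAD match at -120. The SOX motif CATTGT (10.7% of windows) and the GATA motif AGATAA (9.99%) were in none of the 8 windows, and the CDX motif TTTATG (10.8%) was in the first Tfap2a window at -54. Eomes and the first Gata2 window held none of the 6 motifs. These are matches of letters in short windows, and no binding was measured.

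The embryos held between 525755 and 1344035 UMIs each, and levels below are UMIs of the gene per 1000000 UMIs of the embryo, written CPM. Pou5f1 was at most 4.73 CPM in all 24 Oct4-KO embryos and between 13.4 and 93.6 CPM in the Oct4 Ctrl embryos. Sox2 was between 7.74 and 36.4 CPM in Sox2-KO early ICMs against 72.6 to 194 CPM in their Ctrl, and between 8.09 and 29.3 CPM in Sox2-KO late ICMs against 94.2 to 299 CPM. In morulae the Sox2 transcript reached 3.32 CPM in KO and ran from 2.91 to 34.2 CPM in Ctrl. A gene is called changed here at a Benjamini-Hochberg adjusted p under 0.05 over all tested genes, by edgeR's quasi-likelihood test, together with a log2 fold change of 1 or more in either direction, and log2 fold changes are given with their standard error (SE).

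In late Oct4-KO ICMs, 6 of the 8 factors rose against Ctrl and none fell, where 9.25% of all genes rose and 18.1% changed. Those that rose were Cdx2, Eomes, Gata3, Tfap2a, Hand1 and Elf3, while Gata2 and Tfap2c were not called. In late Sox2-KO ICMs, Cdx2, Eomes and Gata3 rose and Gata2 fell, where 6.95% of genes changed (3.34% rose and 3.61% fell). Over all genes the split there depended on scaling, with 469 higher and 508 lower by TMM and 379 higher and 628 lower when scaled by totals alone, and the calls of the 8 factors were as many under both. The median log2 fold change of the 8 factors was 1.95 in the Oct4 line and 0.8 in the Sox2 line, beside -0.01 and 0 over all tested genes.

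In early ICMs, 3 of the 8 factors rose in the Oct4 line (Eomes, Gata3 and Hand1), where 10.9% of all genes changed and 4.77% rose. In the Sox2 line 3 rose (Cdx2, Eomes and Gata3), and Tfap2c fell, where 3.27% of genes changed (1.57% rose and 1.69% fell). Eomes and Gata3 were thus called higher in KO in all 4 ICM comparisons. The median log2 fold change of the 8 factors was 0.48 in the Oct4 line and 1.33 in the Sox2 line, beside 0.01 and -0.01 over all tested genes. In morulae, Hand1 alone was called, in the Oct4 line, where 0.178% of genes rose and 0.804% changed. None of the 8 was called in Sox2-KO morulae, where 0.00712% of all genes changed, and none had an unadjusted p under 0.05 there or was called by DESeq2.

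**Figure D1:**
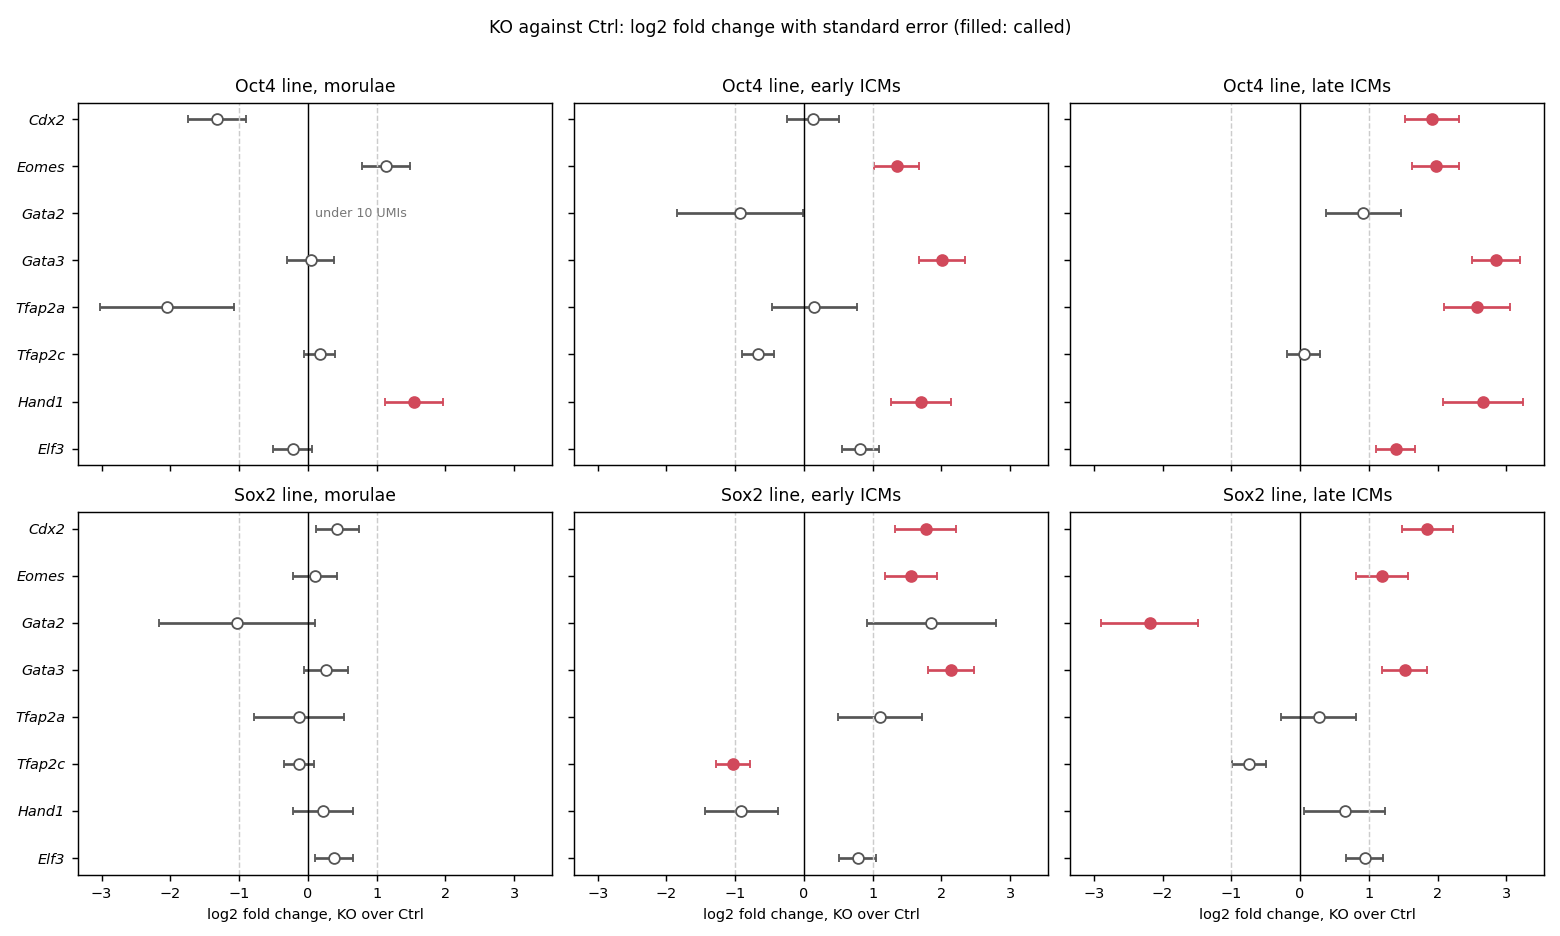
Log2 fold change of KO over Ctrl (x axis, no unit) for the 8 factors (y axis) in the 6 line and stage comparisons; bars are the SE, filled points are called, and Gata2 in Oct4 morulae, with 1 UMI in all, is not drawn. In late Oct4-KO ICMs 6 points are filled, all to the right of 0, and in late Sox2-KO ICMs Gata2 lies at -2.19.

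Cdx2, a caudal-type homeobox factor required to maintain the trophectoderm, spans chr5:147300805-147307270 (mm10, ENSMUSG00000029646). In Oct4-KO morulae its lowest, median and highest levels were 3.45, 6.01 and 9.51 CPM, against 6.79, 14 and 27.7 CPM in Ctrl. Of the 8 KO morulae 6 lay below every Ctrl, and the log2 fold change of -1.32 ± 0.42 had an adjusted p of 0.0911 in edgeR, so it was not called; DESeq2 gave -1.35 with an adjusted p of 0.0408. In Oct4 early ICMs the groups overlapped widely, at 6.25, 15.5 and 27.9 CPM in KO and 4.54, 11.6 and 35.2 CPM in Ctrl (log2 fold change 0.13 ± 0.38, adjusted p = 0.862).

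By the late ICM the 2 Oct4 groups no longer overlapped in Cdx2. The KO embryos held 17.7, 30.7 and 79.6 CPM (lowest, median, highest) and the Ctrl embryos 6.69, 10.5 and 14.5 CPM, a log2 fold change of 1.92 ± 0.39 (adjusted p = 4.43e-05). The change of the KO effect from early to late ICM was itself called, at 1.8 ± 0.55 on the log2 scale (adjusted p = 0.04, where 3.11% of genes were called and 2.07% as higher), although with counts thinned to the lowest total it was not (adjusted p = 0.152).

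In the Sox2 line Cdx2 differed between KO and Ctrl in early ICMs, where the Ctrl level was low. The early means were 16.0 CPM in Sox2 KO and 4.73 CPM in Sox2 Ctrl, beside 20.9 CPM in Sox2 MWT and 14.8 CPM in Oct4 Ctrl. KO levels were 5.93, 16.2 and 25.8 CPM against 0, 3.61 and 15.6 CPM in Ctrl, with 5 of 8 KO embryos above every Ctrl (log2 fold change 1.77 ± 0.44, adjusted p = 0.00417). Over the 4 embryos per group whose numbers occur in both groups, a set chosen after the data were seen, it was 1.4 (adjusted p = 0.29). In late ICMs they were 9.9, 29.6 and 69.7 CPM against 0, 8.63 and 28.8 CPM, with 4 KO embryos above every Ctrl (1.85 ± 0.37, adjusted p = 9.88e-05). Sox2 morulae gave 39.8, 43.0 and 58.3 CPM in KO and 18.2, 33.8 and 52.3 CPM in Ctrl, a difference that was not called. The difference between the lines in the early KO effect, -1.64 ± 0.58, was not called by edgeR (adjusted p = 0.0625) and was called by DESeq2 (adjusted p = 0.0321).

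Gata3, a zinc finger factor that acts beside CDX2 downstream of TEAD4, spans chr2:9857078-9890034 (ENSMUSG00000015619). It overlaps 2 genes on the opposite strand and 1 on the same strand, and the use of strand in counting was not stated in the sources used here. In late Oct4-KO ICMs its levels were 297, 414 and 532 CPM against 13.9, 64.4 and 114 CPM in Ctrl. Every KO embryo lay above every Ctrl, and the log2 fold change of 2.85 ± 0.35 (adjusted p = 7.5e-11) was the largest of the 8 factors in that comparison.

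In early Oct4 ICMs the levels of Gata3 were 192, 331 and 493 CPM in KO and 16.1, 81.6 and 213 CPM in Ctrl (2.01 ± 0.33, adjusted p = 1.31e-06). The highest Ctrl value belonged to replicate 9, and 7 of 8 KO embryos exceeded it. In early Sox2 ICMs the groups did not overlap, with 102, 177 and 296 CPM in KO against 21, 45.0 and 62.0 CPM in Ctrl (2.14 ± 0.34, adjusted p = 3.83e-06). In late Sox2 ICMs they overlapped, with 110, 158 and 318 CPM against 4.07, 48.8 and 228 CPM (1.52 ± 0.33, adjusted p = 0.000489), and the highest Ctrl was replicate 1-10. Oct4 morulae had medians of 60.3 CPM in KO and 64.7 CPM in Ctrl, with overlapping ranges (log2 fold change 0.04 ± 0.34). In Sox2 morulae the medians were 159 and 143 CPM (0.27 ± 0.32), and neither was called.

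Eomes, a T-box factor needed for trophoblast development after the blastocyst forms, spans chr9:118478212-118486132 (ENSMUSG00000032446) and overlaps a predicted antisense gene. In Oct4-KO morulae its levels were 22.4, 36.7 and 53.9 CPM against 4.12, 17.1 and 34.1 CPM in Ctrl. Of the KO morulae 5 exceeded every Ctrl, and the log2 fold change of 1.14 ± 0.35 was not called (adjusted p = 0.0771).

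Eomes in early Oct4 ICMs was at 31.1, 69.9 and 102 CPM in KO and 8.51, 27.7 and 42.1 CPM in Ctrl (1.35 ± 0.33, adjusted p = 0.00112). In late Oct4 ICMs it was at 33.8, 77.5 and 187 CPM against 5.47, 19.4 and 94.5 CPM (1.97 ± 0.34, adjusted p = 2.32e-06). A Ctrl embryo, replicate 2-4, held the 94.5 CPM, and 2 KO embryos exceeded it while all 8 lay above the Ctrl median. In early Sox2 ICMs all 8 KO embryos (18.4, 28.5 and 43.2 CPM) lay above every Ctrl (1.11, 11.4 and 17.6 CPM), with a log2 fold change of 1.56 ± 0.38 (adjusted p = 0.00384). In late Sox2 ICMs KO held 13.5, 29.4 and 43.1 CPM and Ctrl 3.59, 11 and 41.4 CPM (1.19 ± 0.38, adjusted p = 0.0232). This last call was lost, at adjusted p of 0.05 to 0.0605, without any 1 of Ctrl 1-1, Ctrl 2-1, KO 2-3 or KO 2-8, and over the 4 embryos per group with numbers found in both it was 0.66 (adjusted p = 0.642).

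**Figure D2:**
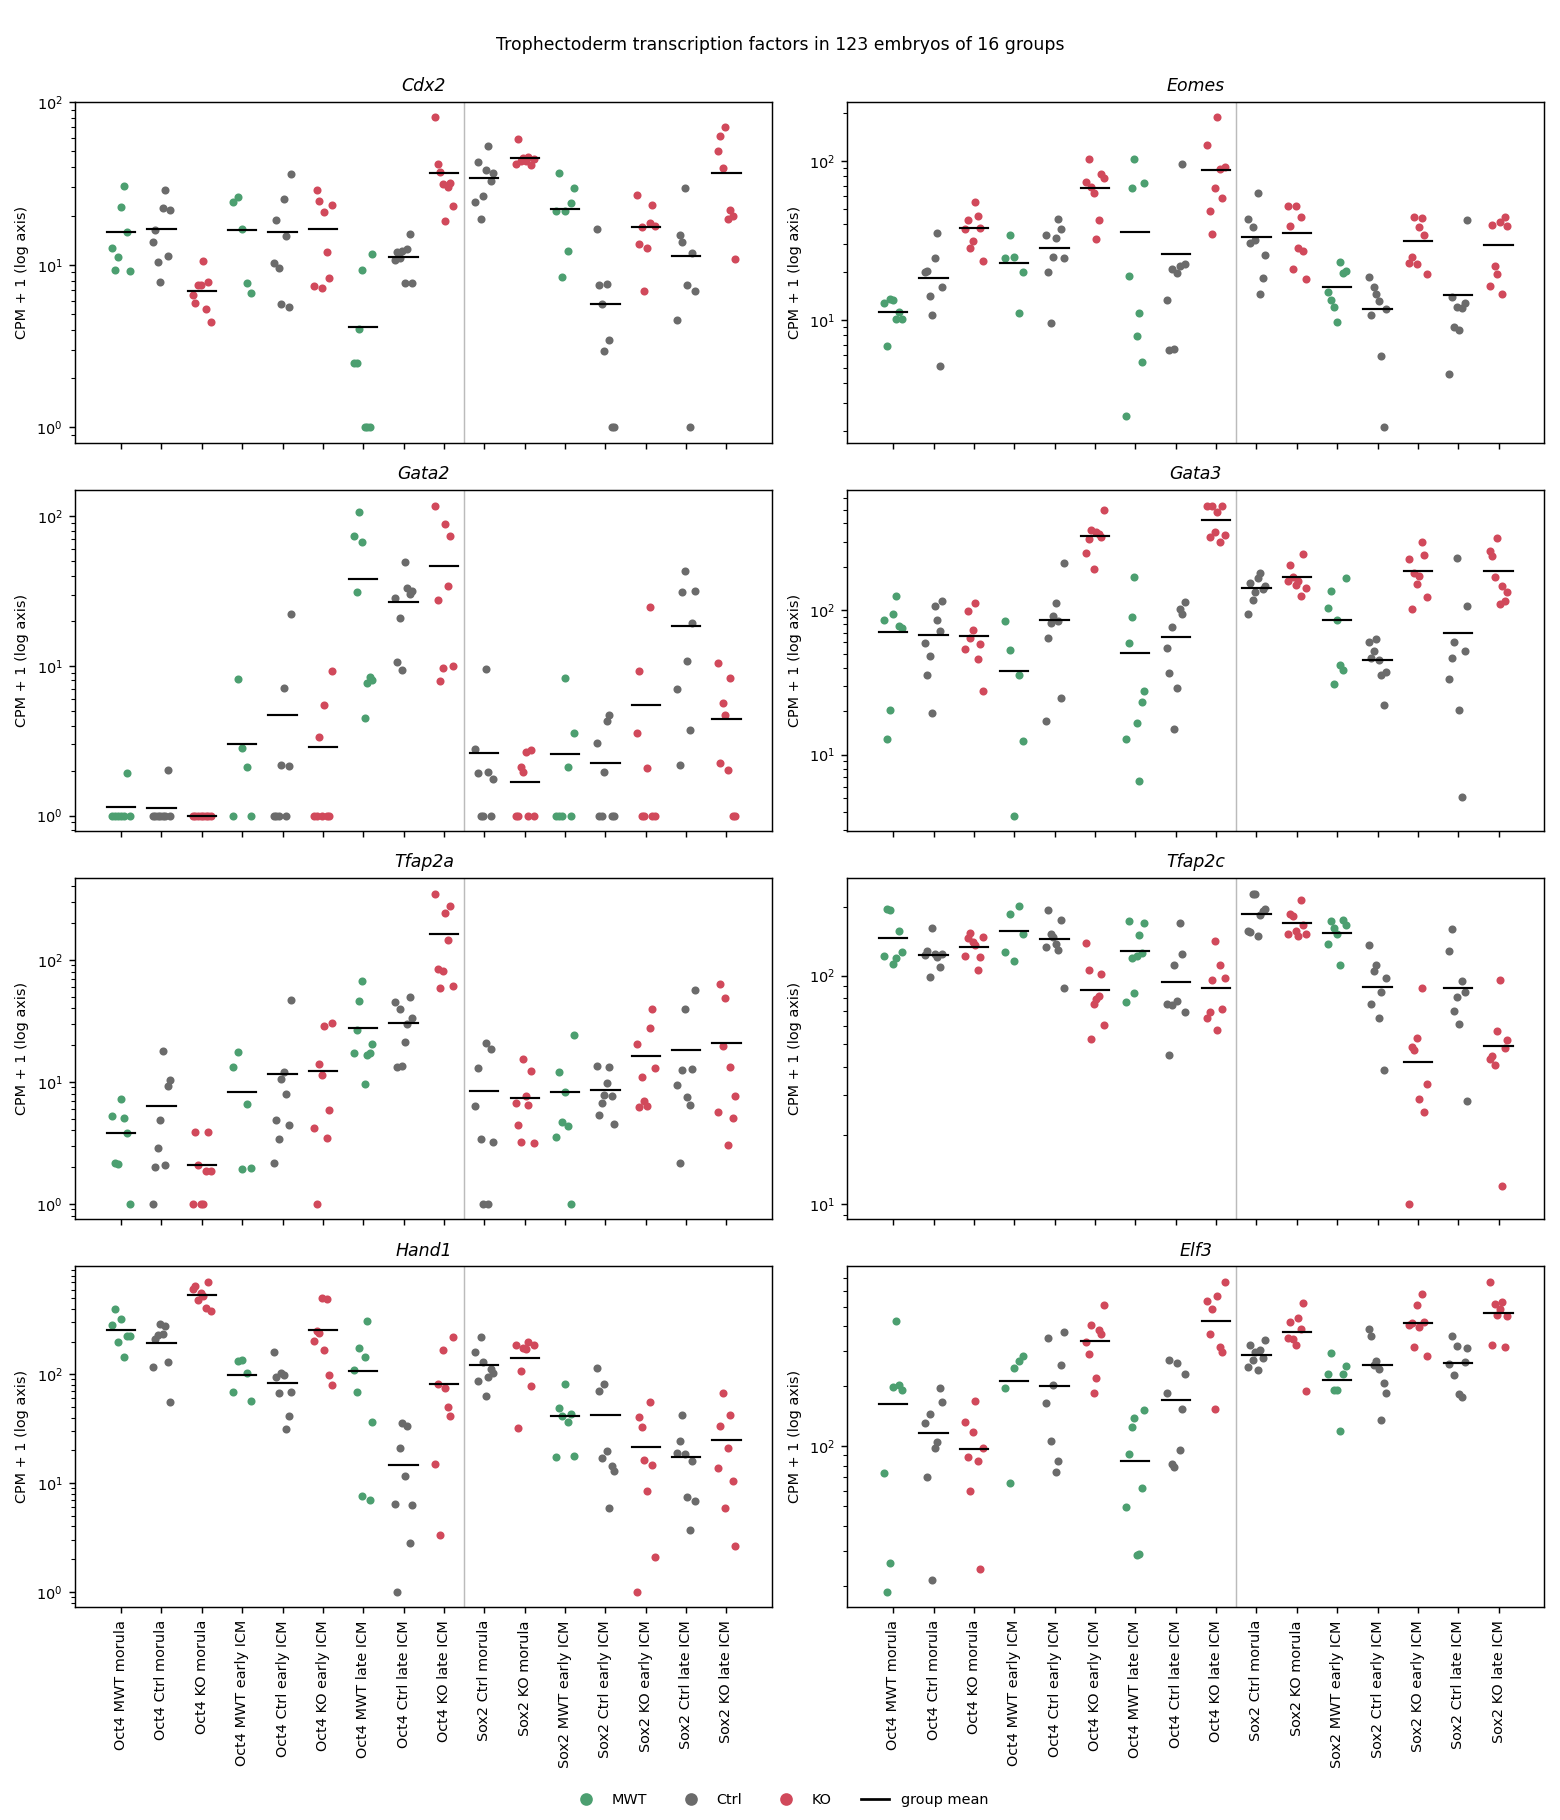
Level of each factor in CPM with 1 added (y axis, log scale, 1 panel per gene) in every embryo, by group (x axis). Each point is an embryo and each line a group mean, also with 1 added. Gata3 lies at 297 CPM or more in every late Oct4-KO ICM, and Hand1 at 380 CPM or more in every Oct4-KO morula.

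Tfap2c encodes AP-2 gamma, which is present from early cleavage and is needed for the trophoblast, and it spans chr2:172549593-172558622 (ENSMUSG00000028640). Its fitted log2 fold change was below 0 in 3 of the 4 ICM comparisons of KO with Ctrl, of which 1 was called, and was 0.05 in late Oct4 ICMs. In early Sox2 ICMs its levels were 9.03, 39.3 and 87.0 CPM in KO against 37.6, 90.3 and 135 CPM in Ctrl. Each KO embryo was under the median of Ctrl, and 4 were under every Ctrl (log2 fold change -1.03 ± 0.25, adjusted p = 0.00361). The value sat at the fold limit, and leaving out any 1 of 8 embryos (Ctrl 2, 5, 7 or 15; KO 1, 10, 17 or 21) brought it to between -0.99 and -0.87 with adjusted p at or under 0.018, as did thinned counts (-0.93), and over the 4 embryos per group with shared numbers it was -0.67 (adjusted p = 0.388).

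Tfap2c in early Oct4 ICMs was at 52.0, 79.2 and 138 CPM in KO and 87.4, 141 and 194 CPM in Ctrl, and in late Sox2 ICMs at 11, 45.4 and 94.9 CPM against 27.2, 81.8 and 159 CPM. Both had an adjusted p under 0.05 (0.0289 and 0.0348) and log2 fold changes short of the limit (-0.67 ± 0.23 and -0.74 ± 0.25). In late Oct4 ICMs the medians were 82.3 CPM in KO and 75.3 CPM in Ctrl, with a log2 fold change of 0.05 ± 0.24 (adjusted p = 0.913). Morulae of the 4 Ctrl and KO groups lay between 97.2 and 227 CPM, with no call.

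Tfap2a encodes AP-2 alpha, a paralogue of AP-2 gamma that is active in trophoblast cells, and spans chr13:40715302-40738376 (ENSMUSG00000021359), where it overlaps 3 antisense genes. Its levels in late Oct4-KO ICMs were 58.2, 114 and 348 CPM, and every KO embryo lay above every Ctrl (12.3, 30.3 and 49.1 CPM). The log2 fold change was 2.57 ± 0.48 (adjusted p = 1.04e-05). In late Sox2 ICMs the groups overlapped at 2.02, 9.43 and 62.4 CPM in KO and 1.18, 9.96 and 55.6 CPM in Ctrl (0.27 ± 0.55, adjusted p = 0.819). The KO effect was larger in the Oct4 line than in the Sox2 line by 2.31 ± 0.73 on the log2 scale (adjusted p = 0.0316, where 6.3% of genes were called for this difference and 2.81% as higher in the Oct4 line), and DESeq2 did not call it.

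Before the late ICM Tfap2a was low. Its group medians ran from 0.863 to 5.58 CPM in the Ctrl and KO morulae and from 5.42 to 11 CPM in the early ICMs, and no KO effect was called there. The lowest of those log2 fold changes, -2.05 ± 0.98 in Oct4 morulae, rested on 9 UMIs in 8 KO embryos against 41 in Ctrl (adjusted p = 0.378).

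Gata2, a GATA factor of trophoblast giant cells, spans chr6:88193891-88207032 (ENSMUSG00000015053) and was the least detected of the 8. All 16 Oct4 morulae of the Ctrl and KO groups together held 1 UMI of it. In late Sox2 ICMs its levels were 0, 2.46 and 9.4 CPM in KO against 1.18, 14 and 42.1 CPM in Ctrl, which made 23 UMIs against 124. Each KO embryo was under the median of Ctrl, and 3 were under every Ctrl (log2 fold change -2.19 ± 0.7, adjusted p = 0.0239). The call was lost with DESeq2 (adjusted p = 0.107), without Ctrl 1-10 (0.0755), KO 2-3 (0.0503) or KO 2-8 (0.0512), with thinned counts (0.0539), and over the 4 embryos per group with shared numbers (0.307).

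In late Oct4 ICMs Gata2 was at 6.98, 30 and 117 CPM in KO and 8.35, 28.3 and 48.2 CPM in Ctrl (0.92 ± 0.55, adjusted p = 0.203), with 3 KO embryos above every Ctrl and 1 below. The difference between the lines in the late KO effect was called at 3.11 ± 0.89 (adjusted p = 0.0162), with the Oct4 effect the higher, and DESeq2 did not call it. In early ICMs most Ctrl and KO embryos held no UMI or a few of Gata2, with totals of 27 in Oct4 Ctrl, 13 in Oct4 KO, 9 in Sox2 Ctrl and 33 in Sox2 KO, and no KO effect was called.

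Hand1, a basic helix-loop-helix factor of giant cells, spans chr11:57828705-57832818 (ENSMUSG00000037335). In Oct4-KO morulae it was at 380, 544 and 707 CPM against 54.8, 221 and 287 CPM in Ctrl, with no overlap. The log2 fold change was 1.54 ± 0.42 (adjusted p = 0.0357). DESeq2 gave an adjusted p of 0.116, and leaving out 1 embryo lost the call for 5 Ctrl (1, 4, 15, 18 and 19) and 5 KO embryos (1, 2, 5, 6 and 8), with the log2 fold change between 1.4 and 1.56.

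Hand1 in early Oct4 ICMs was at 78.4, 222 and 498 CPM in KO and 30.4, 80.7 and 159 CPM in Ctrl, with 6 KO embryos above every Ctrl (1.7 ± 0.44, adjusted p = 0.0025). Over the 2 embryos per group with shared numbers the value was 0.86 (adjusted p = 0.0108), under the fold limit. In late Oct4 ICMs it was at 2.33, 61.9 and 220 CPM against 0, 8.11 and 34.8 CPM, again with 6 above every Ctrl (2.66 ± 0.58, adjusted p = 0.000132). The Sox2 line gave no call for Hand1, with early medians of 14.5 CPM in KO and 17.5 CPM in Ctrl (-0.91 ± 0.53, adjusted p = 0.343) and late medians of 16.6 and 16.4 CPM (0.65 ± 0.59, adjusted p = 0.53). In early ICMs the KO effect was higher in the Oct4 line than in the Sox2 line by 2.62 ± 0.69 (adjusted p = 0.00751, where 5.52% of genes were called for this difference, and 2.11% as higher in the Oct4 line). In late ICMs the same difference was 2.01 ± 0.85 and was not called (adjusted p = 0.131).

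Elf3, an ETS-family factor of epithelia, spans chr1:135253575-135258568 (ENSMUSG00000003051) and overlaps a predicted antisense gene. In late Oct4 ICMs it was at 152, 425 and 666 CPM in KO and 78.0, 168 and 269 CPM in Ctrl. Of the KO embryos 7 exceeded every Ctrl (1.39 ± 0.28, adjusted p = 3.34e-05). Late Sox2 ICMs gave 314, 470 and 664 CPM against 176, 261 and 357 CPM, with 6 above every Ctrl, and the log2 fold change of 0.94 ± 0.27 (adjusted p = 0.0105) fell short of the limit.

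Elf3 was not called in early ICMs. The Oct4 line gave medians of 348 CPM in KO and 184 CPM in Ctrl (0.82 ± 0.27, adjusted p = 0.0226) and the Sox2 line 409 and 249 CPM (0.78 ± 0.27, adjusted p = 0.062). Without Oct4 Ctrl replicate 9, left out after its values were seen, the Oct4 value was 1.03 (adjusted p = 0.00493). In morulae the log2 fold changes were -0.22 ± 0.28 in the Oct4 line and 0.38 ± 0.27 in the Sox2 line, without a call.

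The step from morula to early ICM was read within each line and genotype. In Sox2 Ctrl embryos 5 of 8 fell, where 31.9% of all genes changed and 14.7% fell. These were Cdx2 (log2 fold change -2.82 ± 0.41, from a mean of 33.2 to 4.73 CPM), Gata3 (-1.72 ± 0.34), Eomes (-1.62 ± 0.37), Hand1 (-1.6 ± 0.46) and Tfap2c (-1.14 ± 0.23). In Sox2-KO embryos Cdx2 (-1.48 ± 0.34), Tfap2c (-2.04 ± 0.25) and Hand1 (-2.74 ± 0.5) fell and Gata2 rose on 33 UMIs against 6, where 32.5% of genes changed (17.2% rose and 15.3% fell). Replicate 11 held 22 of the 33 Gata2 UMIs and 4 of the 8 early ICMs held none. The ratio to morulae was 6.36 (95% counting interval 2.63 to 18.6), and 2.43 (0.823 to 7.99) without that embryo, left out after its values were seen. Counting intervals, here and below, pool the UMIs of a group and leave out the spread between embryos. Gata3 held its level in Sox2 KO by the fitted value, at a mean of 187 CPM in early ICMs and 169 CPM in morulae (0.14 ± 0.31), and Eomes stood at 30.3 and 34.1 CPM (-0.17 ± 0.33); neither was called.

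In the Oct4 line the Ctrl embryos fell in Hand1 over the same step (-1.34 ± 0.44), where 29% of genes changed (14.1% rose and 14.9% fell). Gata2 rose from 1 UMI to 27, of which 20 came from replicate 9; the ratio of 31.2 had a 95% counting interval of 5.14 to 1280, and without that embryo it was 9.38 (1.2 to 423). Oct4-KO embryos rose in Gata3 (2.24 ± 0.33), Elf3 (1.73 ± 0.28), Tfap2a (3.14 ± 0.88), Cdx2 (1.3 ± 0.42) and Gata2, and fell in Hand1 (-1.17 ± 0.42), where 26.3% of genes changed (12.7% rose and 13.6% fell). For Gata2 this was 13 UMIs against 0, at least 5.03-fold higher against a floor of 3 counts over the group. Replicate 18 held 7 of the 13 and 5 of the 8 embryos held none, and without replicate 18 the bound was 2.64-fold. The Oct4 and Sox2 morulae stood at different Ctrl levels, with mean Gata3 of 66.9 CPM in the Oct4 line and 141 CPM in the Sox2 line and mean Cdx2 of 15.5 and 33.2 CPM. That difference between lines was not tested. With thinned counts the calls of this step for Gata2 in Oct4 Ctrl (adjusted p = 0.0743) and Oct4 KO (0.0847) and for Cdx2 in Oct4 KO (0.0539) were lost, and with DESeq2 that for Hand1 in Oct4 KO (0.0706).

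From early to late ICM, Gata2 rose in both Ctrl lines, by 2.73 ± 0.68 in Oct4 and 3.68 ± 0.81 in Sox2 on the log2 scale, where 15.6% and 2.9% of genes changed and 9.52% and 1.94% rose. In early Oct4 Ctrl ICMs, replicate 9 held 20 of the 27 Gata2 UMIs. Gata2 passed the detection filter only through the late ICMs, the stage where it was most detected. Its rises over this step, in Ctrl and in Oct4 KO, were also called without the filter. Oct4 Ctrl also rose in Tfap2a (1.47 ± 0.57) and fell in Hand1 (-2.53 ± 0.58), where 6.04% of genes fell. The early Tfap2a mean of 10.5 CPM included replicate 9 at 45.8 CPM, with the next embryo at 10.9 CPM. Oct4 KO rose in Gata2 (4.58 ± 0.73), Tfap2a (3.89 ± 0.53) and Cdx2 (1.28 ± 0.36) and fell in Hand1 (-1.58 ± 0.45), where 16% of genes changed (9.76% rose and 6.2% fell). Sox2 KO rose in Cdx2 (1.15 ± 0.35), where 1.07% of genes changed and 0.676% rose, a call lost with thinned counts (adjusted p = 0.116). The call of Tfap2a in Oct4 Ctrl was lost with DESeq2 (adjusted p = 0.0505). Gata2 was not called in Sox2 KO, at 23 UMIs in late against 33 in early ICMs, and the change of its KO effect from early to late, -4.03 ± 1.17, had an adjusted p of 0.142 and an unadjusted p of 0.000888. No factor was called for that change of effect in the Sox2 line, where 0.0427% of genes were, and Gata2 was the 1 factor of 8 with an unadjusted p under 0.05.

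The order of the 16 group means placed late Oct4-KO ICMs highest in Eomes (86.9 CPM), Gata2 (45.3 CPM), Gata3 (421 CPM) and Tfap2a (162 CPM). Sox2-KO morulae were highest in Cdx2 (44.5 CPM), Sox2 Ctrl morulae in Tfap2c (185 CPM), Oct4-KO morulae in Hand1 (539 CPM) and late Sox2-KO ICMs in Elf3 (466 CPM). The lowest means were in Oct4 MWT groups for Cdx2 (late ICM, 3.12 CPM), Eomes (morula, 10.1 CPM), Gata3 (early ICM, 36.9 CPM) and Elf3 (late ICM, 83.4 CPM). Neighbours in these orders mostly lay within their spread. Of 15 neighbouring pairs per gene, the larger SD was exceeded in 2 for Cdx2 and Gata3, in 1 for Eomes, Tfap2a, Tfap2c and Hand1, and in 0 for Gata2 and Elf3.

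Ctrl embryos were set against MWT embryos, in a fit of all embryos and 13923 genes. Ctrl embryos lacked the maternal gene product and also inherited a deleted maternal allele. Loss of the product, loss of that allele and the different cross cannot be told apart here. Ctrl embryos serve in both this comparison and the KO comparison. In Sox2 early ICMs Cdx2 was lower in Ctrl, at 0, 3.61 and 15.6 CPM against 7.42, 20.3 and 35.5 CPM in MWT (-2.1 ± 0.45, adjusted p = 0.00111, where 2.58% of genes were called and 1.17% as lower). The Sox2-KO early ICMs, at 5.93, 16.2 and 25.8 CPM, overlapped the MWT values. Tfap2c was at a mean of 88.1 CPM in Ctrl and 153 CPM in MWT (-0.81 ± 0.23, adjusted p = 0.0191), short of the fold limit. In this comparison the epiblast markers Fgf4 and Tdgf1 were called higher and Gata6 and the effector Cldn4 lower in Ctrl. The summed endoderm markers ran from 215 to 888 CPM in Ctrl and from 974 to 1460 CPM in MWT, and their part in the Cdx2 difference was not tested.

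In Oct4 late ICMs Hand1 was lower in Ctrl than in MWT, at 0, 8.11 and 34.8 CPM against 5.94, 88.5 and 311 CPM (-2.93 ± 0.59, adjusted p = 0.00123, where 0.797% of genes were called and 0.273% as lower). Over all genes 73 were higher and 38 lower in Ctrl there, or 65 and 55 when scaled by totals alone. The endoderm markers Col4a1, Gata4, Lama1 and Sox17 were called higher in Ctrl, with a summed level of 283 to 1480 CPM against 113 to 451 CPM in MWT, and their part in the Hand1 difference was not tested. The labels of these MWT ICMs disagree on the stage. Their mean Gata2 was 37.3 CPM, beside 25.7 CPM in late and 3.71 CPM in early Ctrl ICMs, and their mean Tfap2a was 26.7 CPM, beside 29.6 and 10.5 CPM. The summed epiblast markers of the MWT ICMs titled early were 1810 to 3720 CPM, all above the 764 to 1200 CPM of MWT morulae. In Hand1 the late Oct4-KO ICMs, at 2.33, 61.9 and 220 CPM, overlapped the late MWT values. Cdx2 was at a mean of 10.1 CPM in Ctrl and 3.12 CPM in MWT (1.83 ± 0.58, adjusted p = 0.0891) and Elf3 at 169 and 83.4 CPM (1.13 ± 0.35, adjusted p = 0.0697), and DESeq2 called both higher. No factor was called by edgeR in Oct4 early ICMs, where 0.373% of genes were and Gata3 had an unadjusted p under 0.05, or in Oct4 morulae, where 0.0646% of genes were and none of the 8 had such a p; DESeq2 called none in either.

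The other trophectoderm genes were followed through lists named in the processing notes. Of 15 tested regulators of the lineage, none of them among the 8 factors, 8 rose in late Oct4-KO ICMs and none fell, where 9.25% of all genes rose and 8.85% fell. They included Klf5 (1.0 on the log2 scale), a factor of the early lineages, and the FGF receptor Fgfr2 (1.34), while Tead4, the partner of YAP, was at 0.95. In early Oct4 ICMs Grhl2, an epithelial factor, rose (1.33 ± 0.24) and Elf5, an ETS factor of trophoblast stem cells, fell (-3.41 ± 1.13), where 4.77% of all genes rose and 6.11% fell. In early Sox2 ICMs Fgfr2 (1.37) and Id2 (3.25 ± 0.54), an inhibitor of helix-loop-helix factors, rose, and in late Sox2 ICMs Id2 did (1.61 ± 0.5), where 1.57% and 3.34% of all genes rose. In Oct4 morulae Tead3 rose (2.21 ± 0.45), where 0.178% of all genes did, and in Sox2 morulae no regulator was called.

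Of 14 effector genes of the trophectoderm (keratins, junction proteins, channels and enzymes), 10 rose in late Oct4-KO ICMs, where 9.25% of all genes rose, and none fell. The defining keratins Krt8 and Krt18 were among them, at 1.98 (adjusted p = 0.000187) and 2.6 (adjusted p = 5.35e-05). Krt18 ran from 314 to 1080 CPM in KO and from 18.1 to 307 CPM in Ctrl. In early Oct4 ICMs 4 rose (4.77% of all genes), namely Cldn4, Dsp, Fabp3 and Ptges. In early Sox2 ICMs 5 rose (1.57% of all genes), namely Cldn4, Dsc2, Dsp, Krt8 and Ptges. In late Sox2 ICMs Cldn4, Dsp and Krt19 rose while the water channel Aqp3 (-1.27 ± 0.32) and the sodium pump subunit Atp1b1 (-1.04 ± 0.32) fell, where 3.34% of all genes rose and 3.61% fell, and Krt8 (0.3) and Krt18 (-0.4) were not called. Krt18 there ran from 67.7 to 522 CPM in KO and from 23.0 to 1160 CPM in Ctrl, with the highest value in replicate 1-10. No effector gene was called in morulae of either line.

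Of the 14 paralogues of the 8 factors, 5 passed the filter. Among all genes 9.25% rose and 8.85% fell in late and 4.77% and 6.11% in early Oct4-KO ICMs, and 3.34% rose in late Sox2-KO ICMs. Gata1 rose in both lines in late ICMs, at 4.17 ± 0.62 in Oct4 and 3.04 ± 0.72 in Sox2, and in early Oct4 ICMs (2.36 ± 0.53). Gata6 and Elf5 rose and Gata4 fell in late Oct4-KO ICMs, and Elf5 fell in early Oct4-KO ICMs. No paralogue was called in early Sox2-KO ICMs, where 3.27% of all genes were, or in morulae (0.804% in Oct4 and 0.00712% in Sox2). Elf5 is also among the regulators, and Gata4 and Gata6 are primitive endoderm markers.

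The summed level of the 14 effector genes, which outer cells left by immunosurgery would also carry, was taken in each embryo. In late Oct4 ICMs it ran from 5250 to 8900 CPM in KO and from 1120 to 3010 CPM in Ctrl, without overlap. In early Oct4 ICMs the ranges were 2570 to 6560 and 460 to 2750 CPM, and replicate 9 held the highest Ctrl value. The summed level of the 8 factors ran from 994 to 1810 CPM in late KO against 274 to 558 CPM, and from 895 to 1350 CPM in early KO against 388 to 866 CPM. From early to late Oct4 Ctrl ICMs the mean effector sum was 1210 and then 1920 CPM, and that of the factors was 568 and then 430 CPM. In Sox2 Ctrl ICMs the mean effector sum was 738 and then 1650 CPM, and that of the factors was 452 and then 492 CPM. The part of remaining outer cells in the levels of the factors was not tested.

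In the Sox2 line the effector sums ran from 1050 to 2790 CPM in early KO against 524 to 1040 CPM in Ctrl, and from 1020 to 2980 CPM in late KO against 538 to 4390 CPM in Ctrl, with overlapping late ranges. The highest of the late Ctrl values were in replicates 1-10 and 2-6, which held the highest Gata3 and the highest Tfap2a of that group, respectively. Without both, a choice made after their values were seen, Gata2 gave -1.56 (adjusted p = 0.191) in late Sox2 ICMs and Elf3 became a call at 1.04 (adjusted p = 0.0122). The sum of the 8 factors was 553 to 1050 CPM in late KO against 296 to 763 CPM, and 488 to 1130 CPM in early KO against 281 to 742 CPM.

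Markers of the other lineages moved too. All 9 epiblast markers fell in late Oct4-KO ICMs, 7 in early Oct4-KO ICMs and 6 in each of the 2 Sox2-KO ICM groups. Among all genes 8.85% fell in late and 6.11% in early Oct4-KO ICMs, and 1.69% in early and 3.61% in late Sox2-KO ICMs. Their sum was 496 to 1010 CPM in late Oct4 KO against 2580 to 3950 CPM in Ctrl, and 1380 to 2030 CPM in late Sox2 KO against 2690 to 4400 CPM. Of the 7 tested primitive endoderm markers, Dab2 and Gata6 rose and Gata4, Lama1, Pdgfra and Sox17 fell in late Oct4-KO ICMs, and the summed level of the 9 in the list was 886 to 1600 CPM against 283 to 1480 CPM. In early ICMs Dab2 rose in both lines and Pdgfra and Sox17 fell in the Oct4 line, and in late Sox2-KO ICMs Lama1 fell. In Oct4 morulae the epiblast marker Gdf3 fell and Col4a1, of the endoderm list, rose, where 0.626% of all genes fell and 0.178% rose, and Sox2 morulae gave no call in either list. The part of these cell types in the levels of the 8 factors was not tested.

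**Figure D3:**
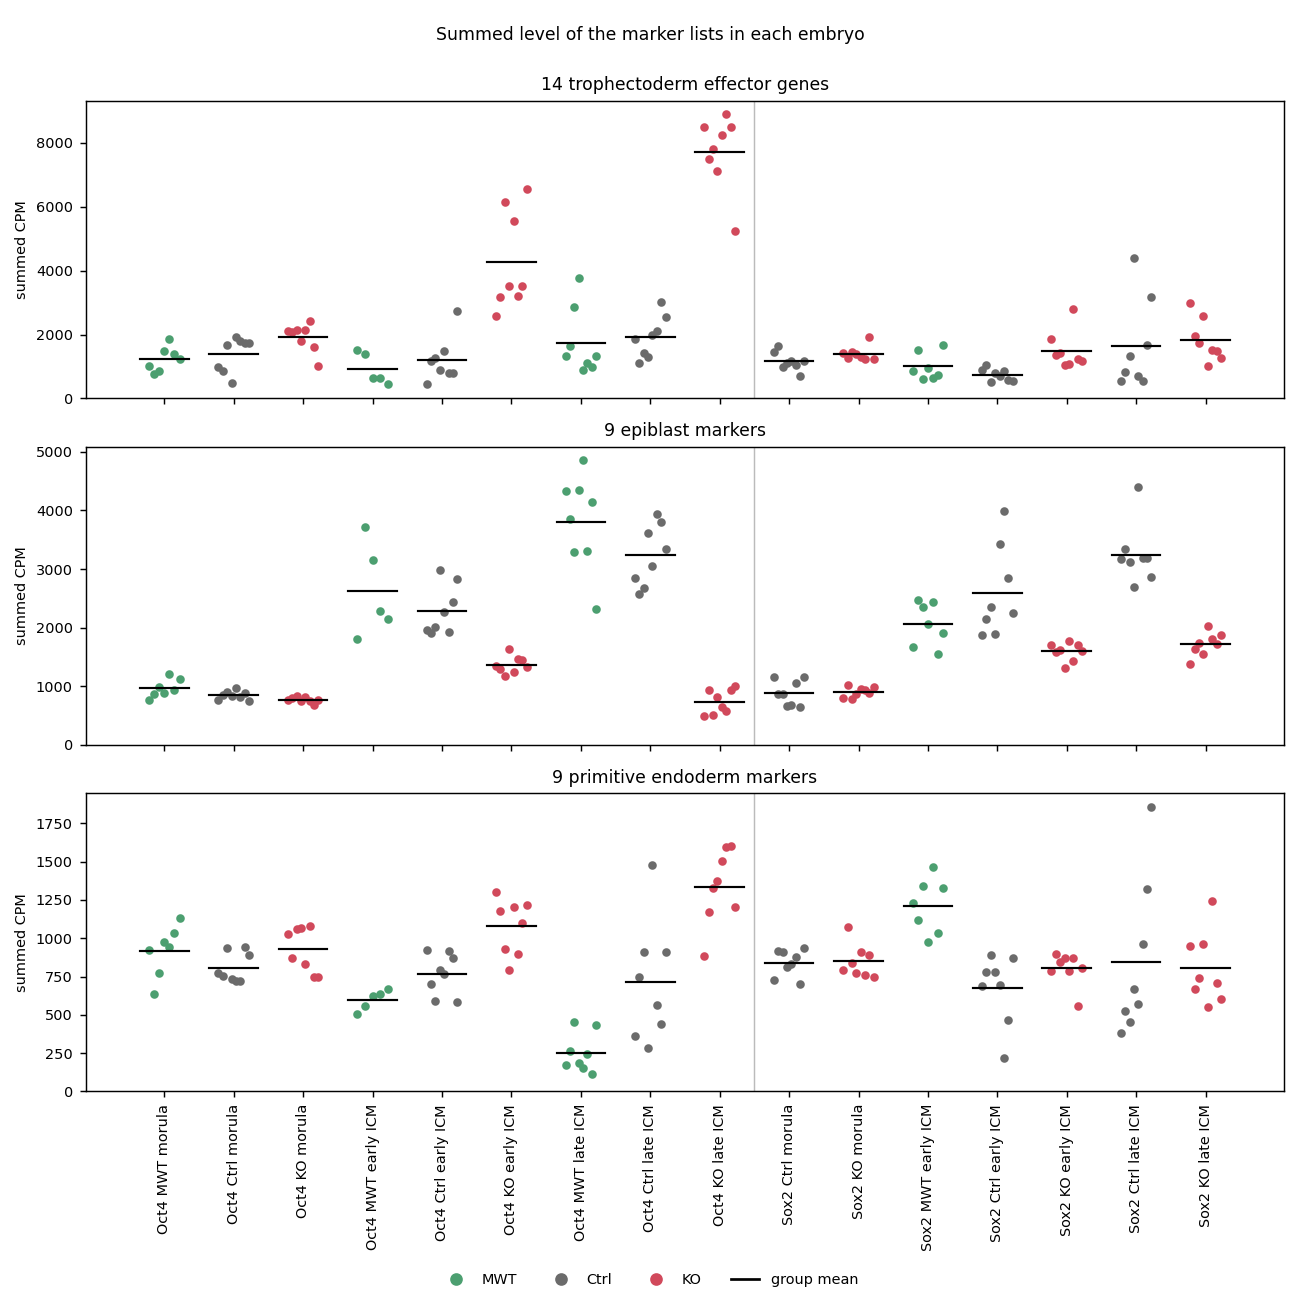
Summed CPM (y axis) of 14 trophectoderm effector genes, 9 epiblast markers and 9 primitive endoderm markers in each embryo, by group (x axis); lines are group means. Late Oct4-KO ICMs lie at 5250 to 8900 CPM for the effector genes and at 496 to 1010 CPM for the epiblast markers, apart from their Ctrl in both.

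The late ICMs carry numbers of the form 1-2 or 2-6, whose first digit the labels do not explain. In Sox2-KO late ICMs the level of Cdx2 differed between the sets, at 38.3 to 69.7 CPM in the 4 embryos of set 1 and 9.9 to 20.8 CPM in the 4 of set 2. Within set 1 every KO embryo exceeded every Ctrl (3.59 to 28.8 CPM), and within set 2 it was 3 of 4 (Ctrl 0 to 10.8 CPM). Gata3 followed the same split, at 168 to 318 and 110 to 147 CPM in the KO embryos of sets 1 and 2. In the Oct4 line all 4 KO embryos of each set exceeded every Ctrl of that set in Cdx2, Gata3 and Tfap2a.

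For Tfap2a and Tfap2c the direction of the difference in means depended on the set. Tfap2a in Sox2 late ICMs was higher in KO by 18.4 CPM in set 1 and lower, by -13.6 CPM, in set 2. Tfap2c in Sox2 late ICMs was lower in all 4 KO embryos of set 1 (39.5 to 56.3 CPM) than in any Ctrl of that set (69.3 to 159 CPM), and overlapped in set 2. In the Oct4 line the mean of Tfap2c was higher in KO by 16.3 CPM in set 1 and lower, by -36.9 CPM, in set 2. Gata2 in Sox2 late ICMs was lower in KO in both sets, by -15.1 and -13.3 CPM, and Elf3 was higher in both, by 199 and 210 CPM. In a fit with the set as a block, 6 factors were called in Oct4 late ICMs and 4 in Sox2 late ICMs, as many as without it.

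**Figure D4:**
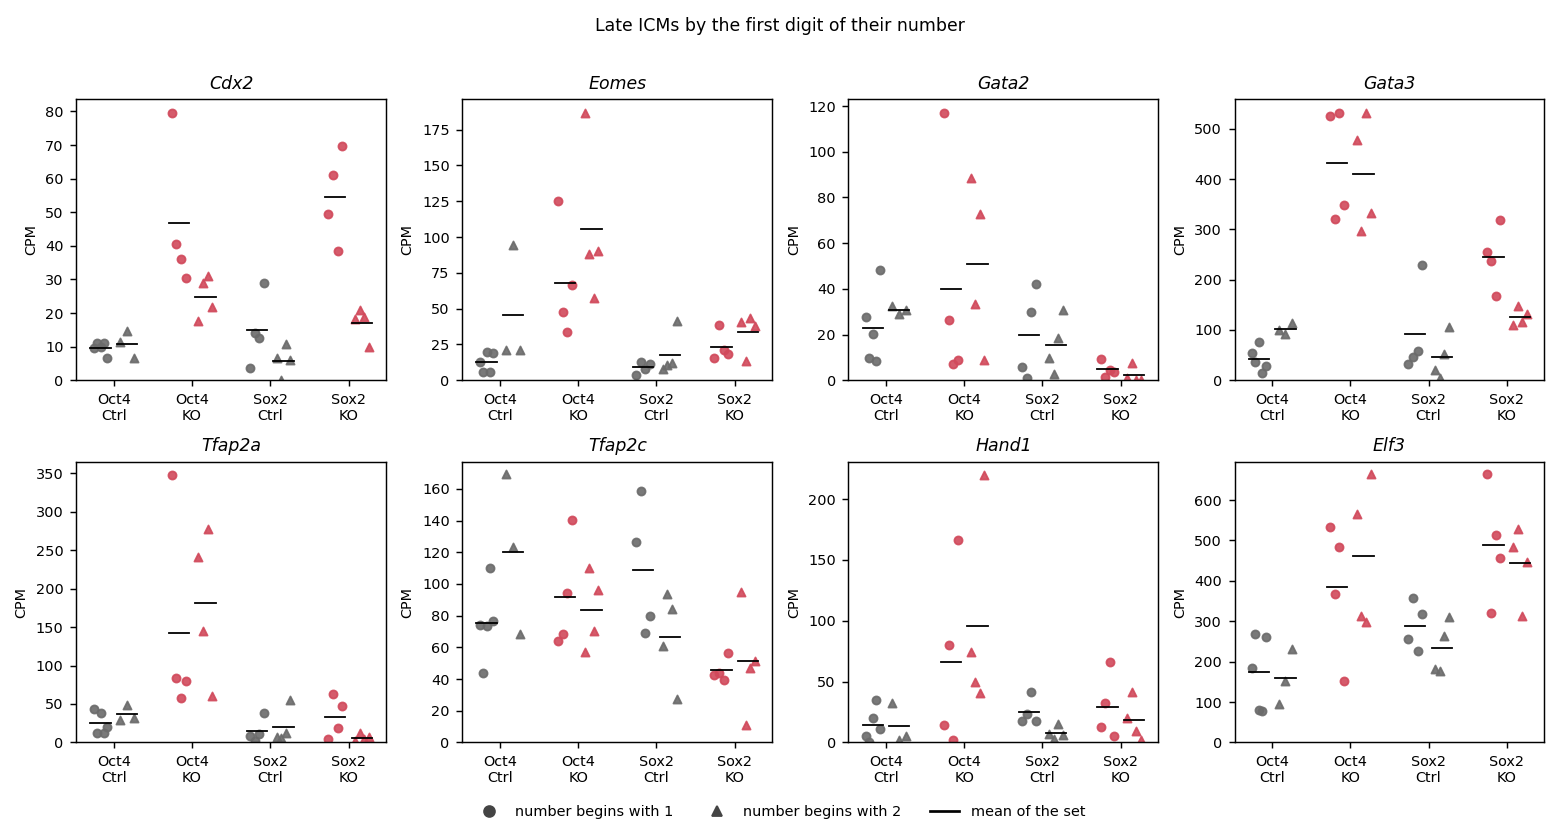
Level in CPM (y axis) of each factor in the late ICMs, by line, genotype and number set (x axis); each point is an embryo. Sox2-KO embryos of set 1 lie at 38.3 CPM or more in Cdx2 and those of set 2 at 20.8 CPM or less.

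The factors also differed in which other genes shared their profile over the 16 groups, measured as Pearson's r of group mean log2 CPM among 7555 genes. Gata3 was closest to Efnb2 (0.94), Actr3 (0.88) and Cnn3 (0.87), and Eomes to Cnn3 (0.89), Bbx (0.88) and Prxl2a (0.88). Tfap2a was closest to S100a1 (0.96), Slc15a2 (0.94) and Cldn3 (0.94), and Gata2 to Src, Trio and S100a1 (0.92 each). Hand1 was closest to Pidd1 and Pfkfb3 (0.94 each) and Tcea3 (0.93). The closest genes reached 0.9 for Elf3 (Polr1d, then Tollip and Ttc9c), 0.88 for Tfap2c (Supv3l1, then Net1 and Brd7) and 0.82 for Cdx2 (Tmem62 and Zfp982).

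Among the 8 factors themselves the highest of these correlations were Gata2 with Tfap2a (0.88), Eomes with Gata3 (0.81), Gata3 with Elf3 (0.73) and Cdx2 with Gata3 (0.7). The 16 groups share stage and line, so their means are not independent, and the correlations are given as a description.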

How the data were processed

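The deposited table held UMI counts per gene for 96 Ctrl and KO and 27 MWT embryos. Per the labels and methods, the authors processed the reads with UMI-tools and Cutadapt, aligned them with TopHat2 to mm10 with GENCODE transcripts and counted them with featureCounts, and TRUmiCount corrected the counts for loss; strand use was not given in the sources used here. Totals were 525755 to 1344035 UMIs per embryo, which limits what can be said of factors with few UMIs such as Gata2. A deposited rlog table was not used.

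The filter kept a gene when 0.5 or more of the embryos of some stage had a UMI. Counts were fitted with edgeR 4.0.16 (TMM scaling, quasi-likelihood test) in R 4.3.3 over 96 Ctrl and KO embryos, or all embryos for MWT comparisons, and the steps were tested on simulated data. A call needed an adjusted p below 0.05 with a log2 fold change of 1 or more in size. SEs were taken from the fold change and its F statistic. Fits without 1 embryo kept the dispersion trend of the full fit. DESeq2 1.42.0, RLE size factors, totals alone, no filter, thinning, smaller and larger sample sets and blocks were alternatives. None of the 416 pairs of libraries within a group agreed within sampling noise. Labels do not say which embryos shared a litter, so p-values measure spread between embryos.

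The 8 factors and the lists (regulators, effectors, paralogues, epiblast and primitive endoderm markers) were chosen with earlier results of these data known. The factors are named throughout, other list genes only where a count was 5 or fewer, with Krt8, Krt18, Tead4, Klf5 and Fgfr2, and likeness gives the 3 highest correlations per factor, among genes with a group mean of at least 20 CPM and without predicted genes; 1 such gene for Cdx2 is not reported here. Motif letters were searched with Python 3.11.15.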

Additional observations from a re-analysis of the deposited data

Results flagged for a closer look

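Of 127 groups of a factor tested for an embryo far from the rest by Dixon's gap, 14 had one. The test's chance rate of about 1 in 20 groups assumes normally distributed values. That rate does not hold for these counts, where a group with 1 UMI in all is always flagged. The 14 were therefore not compared with chance. Each of the 14 embryos was the highest of its group. Gata2 gave 7 of them, at 0.933 CPM in Oct4 MWT morula 8 and 1.03 CPM in Oct4 Ctrl morula 18 (1 UMI each), 7.13 CPM in Oct4 MWT early ICM 3, 21.3 CPM in Oct4 Ctrl early ICM 9, 8.54 CPM in Sox2 Ctrl morula 14, 7.25 CPM in Sox2 MWT early ICM 9 and 23.6 CPM in Sox2 KO early ICM 11.

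Cdx2 stood apart at 79.6 CPM in Oct4 KO late ICM 1-2, 58.3 CPM in Sox2 KO morula 3 and 15.6 CPM in Sox2 Ctrl early ICM 2. Eomes did so at 94.5 CPM in Oct4 Ctrl late ICM 2-4 and 41.4 CPM in Sox2 Ctrl late ICM 2-6, Gata3 at 228 CPM in Sox2 Ctrl late ICM 1-10 and Tfap2a at 45.8 CPM in Oct4 Ctrl early ICM 9.

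KO effects that differed between lines by a tested contrast were those of Hand1 in early ICMs (2.62 higher in the Oct4 line on the log2 scale) and of Gata2 (3.11) and Tfap2a (2.31) in late ICMs. The KO effect of Cdx2 in the Oct4 line was 1.8 higher in late than in early ICMs.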

How the results depend on the processing

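Of 2148 values of single factors under alternatives, 2070 kept their side of the thresholds (59 values called in neither fit changed sign), 49 lost a call, 29 gained a call and 0 called values changed sign. Calls among the 8 factors without 1 embryo ran from 0 to 2 in Oct4 morulae (1 with all embryos), 3 to 4 in Oct4 early ICMs (3), 6 to 6 in Oct4 late ICMs (6), 0 to 0 in Sox2 morulae (0), 3 to 4 in Sox2 early ICMs (4) and 2 to 5 in Sox2 late ICMs (4); Elf3 was gained in late Sox2 ICMs without Ctrl 1-4, KO 1-3 or KO 2-8, and Eomes in Oct4 morulae without Ctrl 16.

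Only the larger relative changes in the count of factors called are listed here, mostly without the calls over all genes under the same setting. They are therefore not a result about the factors. By adjusted p alone, 5 factors were called in Oct4 early ICMs (3 with the fold limit) and 2 in Sox2 early Ctrl against MWT (1). DESeq2 called 2 for the difference between lines in early ICMs (1) and 0 in late ICMs (2), with adjusted p of 0.115 for Gata2 and 0.0733 for Tfap2a, and 3 in Oct4 late Ctrl against MWT (1), where no detection filter gave 2. No filter also gave 2 for the change of the Oct4 KO effect between stages (1: Cdx2), where thinned counts gave 0. Thinning further gave 1 for Oct4 Ctrl early ICMs against morulae (2) and 0 for Sox2 KO late against early ICMs (1). The 16 Oct4 Ctrl and KO morulae alone gave 3 (1), with 135 calls over all genes (113), adding Cdx2 and Eomes. The cause was not tested.

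The replicate numbers do not pair the embryos (correlations of same-numbered embryos from -0.08 to 0.23). With a replicate block over embryos with shared numbers, 2 factors were called in Oct4 morulae, 2 in Oct4 early ICMs, 2 in Sox2 early ICMs and 4 in Sox2 late ICMs, against 1, 2, 2 and 3 in the same embryos without the block. Of the calls over all embryos, this lost Hand1 in Oct4 early ICMs (0.88), Cdx2 (1.65, adjusted p = 0.0787) and Tfap2c (-0.68) in Sox2 early ICMs and Eomes (0.84, adjusted p = 0.275) and Gata2 (-1.34) in Sox2 late ICMs, each also lost in those embryos without the block. It gained Eomes in Oct4 morulae (1.07, adjusted p = 0.0357) and Hand1 (1.28, adjusted p = 0.0157) and Elf3 (1.32, adjusted p = 2.35e-08) in Sox2 late ICMs, of which Elf3 was also gained without the block. Sox2 morulae share no number and Oct4 late ICMs share 1, so no block could be fitted there. Among all genes, thinning left 56 calls in Oct4 morulae (113) and adjusted p alone gave 206.

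Gata2 had 0 to 33 UMIs per Ctrl or KO group of 8 before the late ICM, so small differences in it were not detectable there.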
